A study of Mus musculus with 16 samples.

Results

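Etoposide resistance and vincristine resistance were compared inside the same leukaemia lines. Mouse lines labelled 2883 and 2696, both from leukaemias of T-cell precursors, each gave 1 derivative resistant to etoposide and 1 resistant to vincristine, and the 2 derivatives of a line were set against each other. These 4 libraries, of 16 in the series, were chosen because only lines 2883 and 2696 carry both drugs; the parental cultures took no part in the comparison. All 4 share the Mcm2cre/cre genotype, the thymus as tissue of origin, growth in DMEM with fetal bovine serum, poly(A)-selected RNA and 1 batch label. The labels do not say whether a derivative is 1 clone, and each derivative is 1 culture sequenced once, so the spread between cultures of the same line and drug was not measured.

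Etoposide traps topoisomerase II on cut DNA, so the enzyme is both the drug's target and the means by which it kills, and cells with less of it form fewer trapped complexes. Vincristine binds tubulin and stops the mitotic spindle. Both drugs are pumped out of cells by P-glycoprotein, which mice make from a pair of neighbouring genes, Abcb1a and Abcb1b, and gain of the chromosome segment that holds them is a classic route to resistance in cultured cells. Leukaemia cells in culture also differ in how much glucose they turn into lactate, a programme that the transcription factor HIF1 raises when its oxygen-dependent hydroxylases are inactive, and in sterol synthesis, which the SREBP factors raise when membranes run short of cholesterol.

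Expression is given as CPM, the reads of a gene scaled to the total reads of its library, and differences are on the log2(CPM + 1) scale, etoposide minus vincristine, where 1 is a 2-fold difference. In the limma test of the 2 pairs, with the line as a block and Benjamini-Hochberg adjustment, 0 of 12669 genes were called (0.0% called; smallest adjusted p = 0.441), and 798 genes (6.3%) had an unadjusted p under 0.05, 571 of them higher with etoposide (4.51%) and 227 lower (1.79%). The spread of a gene rests on 1 residual degree of freedom and is moderated across genes, and an exact permutation of 2 pairs cannot go below p = 0.5. All that follows is therefore a description of 4 libraries. Ratios carry 95% exact binomial intervals on the reads behind them, which cover counting error only.

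At least a 2-fold difference in the same direction in both lines was found for 245 genes higher with etoposide (1.93% of genes tested) and 40 lower (0.316%). These counts moved with the scale, to between 66 and 397 higher and between 8 and 97 lower under the alternatives. The 2 lines shared little beyond this: across 12669 genes the difference in line 2883 and that in line 2696 had a Pearson r of 0.09 and a Spearman rho of 0.18, given as a description, since genes are not independent replicates. Of the variation of log2 values among the 4 libraries, 70.1% lay between the lines, 16.4% between the drugs and 13.5% in a drug difference that was not the same in both lines. Depth was 14260000 to 17174000 reads, and mitochondrial transcripts took 4.30% and 5.53% of reads in the etoposide and vincristine derivatives of line 2883 and 3.58% and 3.13% in those of line 2696. All 12 of 12 T-cell markers were tested, with a summed level of 5041 to 7013 CPM. Of the markers listed for other cells, 3 of 11 for B cells, 2 of 12 for myeloid cells, 2 of 12 for stroma and endothelium and 2 of 9 for red cells had a row in the table, with summed levels of 7.69 to 191 CPM, 12.1 to 20.4 CPM, 28.5 to 591 CPM and 12.1 to 15.1 CPM in that order.

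**Figure D1:**
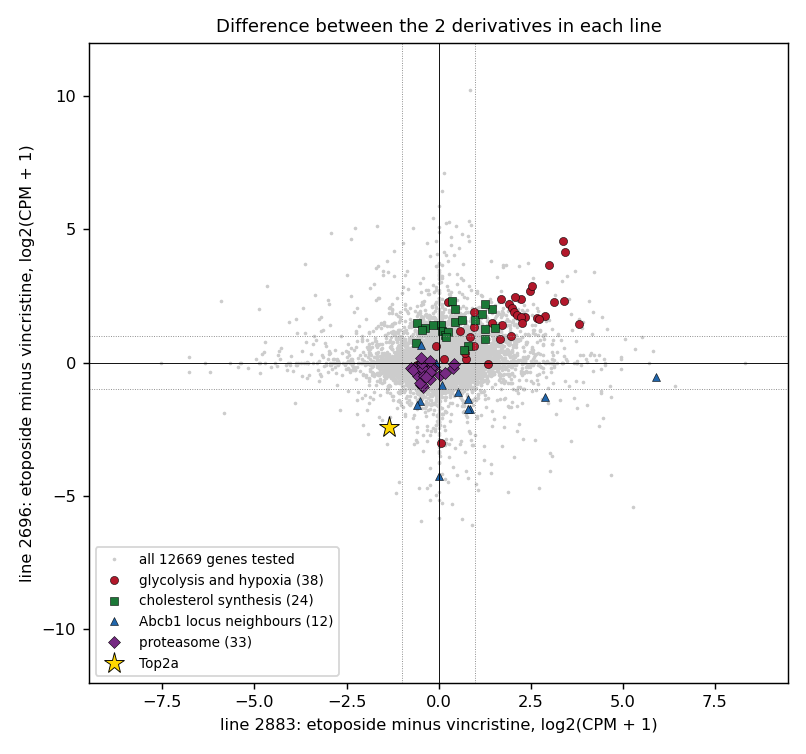
Each point is a gene, placed by its etoposide minus vincristine difference in line 2883 (x axis) and in line 2696 (y axis), both as log2(CPM + 1); dotted lines mark 2-fold. Glycolysis and hypoxia genes (red) fill the upper right, with 34 of 38 higher with etoposide in both lines, and Top2a (star) stands in the lower left at -1.34 and -2.42.

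The genes of glycolysis and the hypoxia response made up the clearest group. Of 38 tested, 34 were higher with etoposide in both lines and 1 was lower in both, beside 28.2% and 28.1% of all genes tested. These shares of all genes also serve for the counts of every later list. The median difference of the glycolysis and hypoxia list was 1.97 in line 2883 and 1.69 in line 2696, beside -0.01 and -0.0003 over all genes. At 2-fold or more in both lines stood 23 of 38, and 30 had an unadjusted p under 0.05. Both etoposide libraries lay above both vincristine libraries in 29 of 38, which held for 14.6% of all genes. The summed level of the list was 22053 CPM against 7293 CPM in line 2883 and 16754 CPM against 5320 CPM in line 2696. The earlier comparison of each drug with the parental cultures already showed opposite signs for this list, so the direction is not independent support.

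HIF1 target genes carry the core ACGTG or GCGTG in many of their control regions, and 3 promoters of the group are shown so that this element can be read in its sequence. Each is the 250 bases before a RefSeq transcription start on GRCm38.p6 (mm10), written 5′ to 3′ on the gene's strand, with ACGTG on either strand in capitals; where the letters CACGTG appear, the 2 strands' matches overlap. They belong to Bnip3 (chr7:138909507-138909756, minus strand), Ldha (chr7:46845554-46845803, plus strand; this start lies 4329 bases from the gene start in the deposited table) and Pgk1 (chrX:106186850-106187099, plus strand).
Bnip3: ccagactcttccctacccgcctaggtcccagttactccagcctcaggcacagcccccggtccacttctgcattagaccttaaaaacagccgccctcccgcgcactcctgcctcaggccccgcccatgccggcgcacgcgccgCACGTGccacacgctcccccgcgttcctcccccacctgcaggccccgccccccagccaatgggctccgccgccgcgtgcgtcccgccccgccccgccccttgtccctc
Ldha: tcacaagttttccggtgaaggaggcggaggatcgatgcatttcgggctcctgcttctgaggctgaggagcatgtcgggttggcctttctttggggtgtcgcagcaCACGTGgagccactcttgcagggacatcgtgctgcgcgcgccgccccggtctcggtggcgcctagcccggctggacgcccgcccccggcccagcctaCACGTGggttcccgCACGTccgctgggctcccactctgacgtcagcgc
Pgk1: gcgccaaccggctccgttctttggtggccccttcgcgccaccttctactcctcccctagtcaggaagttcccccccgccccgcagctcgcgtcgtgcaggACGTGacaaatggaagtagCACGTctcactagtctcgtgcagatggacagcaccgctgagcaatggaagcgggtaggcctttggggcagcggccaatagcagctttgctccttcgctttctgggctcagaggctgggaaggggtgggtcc
The first capital base stands at -108 from the start in Bnip3, at -145, -48 and -34 in Ldha, and at -150 and -131 in Pgk1. In the same 250-base window, ACGTG on either strand was present in 17 of the 34 list members with a RefSeq entry (50%), and in 2046 of the 9113 genes tested that had one (22.5%). For GCGTG alone the shares were 17 of 34 (50%) and 46.8%, and for ACGTG or GCGTG they were 26 of 34 (76.5%) and 58.2%. Among the 23 members that were 2-fold higher in both lines, 20 had an entry and 13 of these held ACGTG (65%). Among all 245 genes 2-fold higher with etoposide in both lines, which include these 23, 163 had an entry and 50 held ACGTG (30.7%). The 13 list members are among the 50. ACGTG or GCGTG was present in 102 of the 163 (62.6%). A match is a run of letters and not a measured binding site.

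Ndrg1, a hypoxia- and stress-induced gene with no promoter entry, had the smallest p of the genes named here. It was at 1013 CPM with etoposide and 93.0 CPM with vincristine in line 2883, and at 201 and 10.5 CPM in line 2696. Both etoposide libraries stood above both vincristine libraries, although line 2696 was lower for either drug. The ratio was 10.9 (95% interval 10.3 to 11.5) and 19.2 (16.4 to 22.4), and the mean log2 difference was 3.78 ± 0.26 (SE; limma adjusted p = 0.441).

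Bnip3, which marks mitochondria for removal, was at 201 and 18.4 CPM in the etoposide and vincristine derivatives of line 2883 and at 59.7 and 1.57 CPM in those of line 2696. Among list members higher with etoposide this was the highest ratio in line 2696, 38.1 (25.8 to 58.5), against 10.9 (9.64 to 12.4) in line 2883. Its relative Bnip3l differed far less, with 138 and 145 CPM in line 2883 and 164 and 104 CPM in line 2696, and here the lines went opposite ways; it lies in a stretch of chromosome 14 whose genes had a median of -0.92 in line 2883. Ddit4, an inhibitor of mTORC1 signalling, was at 534 and 65.4 CPM in line 2883 and 249 and 18.8 CPM in line 2696. The etoposide libraries were again the 2 high ones, 8.16-fold (7.63 to 8.74) and 13.2-fold (11.8 to 14.9) above their counterparts. Ankrd37, a small HIF1 target, was at 36.5 and 2.54 CPM in line 2883 and at 18.9 and 2.96 CPM in line 2696.

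**Figure D2:**
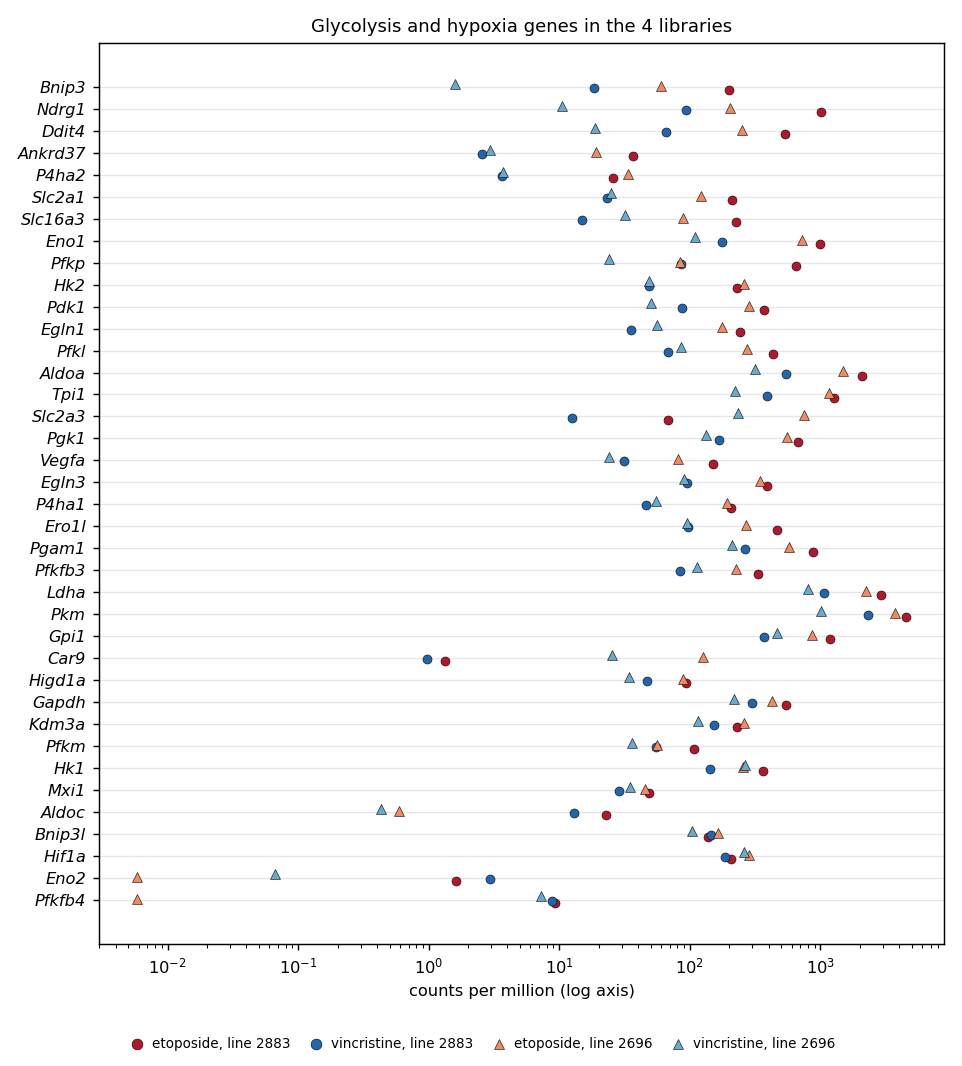
Levels of the 38 glycolysis and hypoxia genes in CPM (log axis), ordered by mean difference; circles are line 2883 and triangles line 2696, red and orange the etoposide and dark and light blue the vincristine derivatives. From Bnip3 to Aldoc the warm symbol lies to the right of the blue one of the same line, except for Hk1 in line 2696; at the bottom Hif1a barely differs, and Eno2 and Pfkfb4, with 0 reads in the etoposide derivative of line 2696, are drawn below 0.01.

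The glucose transporters stand at the entry of the pathway. Slc2a1 was at 209 CPM with etoposide and 23.2 CPM with vincristine in line 2883, and at 122 and 24.7 CPM in line 2696, a ratio of 9.04 (8.07 to 10.1) and 4.95 (4.45 to 5.52). The vincristine derivatives of the 2 lines were close to each other and the etoposide derivatives high in both. Slc2a3 was mostly a gene of line 2696, at 754 and 232 CPM there and 67.7 and 12.4 CPM in line 2883, so the drug groups overlapped although each etoposide library exceeded its own counterpart. Hk2, the inducible hexokinase, was at 230 and 48.4 CPM in line 2883 and at 258 and 48.6 CPM in line 2696. Its etoposide libraries resembled each other, as did its vincristine libraries, with ratios of 4.76 (4.39 to 5.17) and 5.30 (4.92 to 5.72). The constitutive Hk1 had a ratio of 2.55 (2.42 to 2.68) in line 2883 and of 0.979 (0.939 to 1.02) in line 2696.

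Of 13 enzymes that lead from glucose phosphate to pyruvate, 12 were higher with etoposide in both lines and 7 were at 2-fold or more in both. Among the 12, ratios ran from 1.74 to 7.55 in line 2883 and from 1.38 to 6.55 in line 2696. Eno1, the enolase, was at 991 and 176 CPM in line 2883 and 723 and 110 CPM in line 2696; its near-identical copy Eno1b had almost the same values (943, 167, 708 and 103 CPM), so reads of the 2 genes may have been split between them. Pgk1, which makes the first ATP of the pathway, was at 670 and 168 CPM in line 2883 and 551 and 134 CPM in line 2696, and the 2 lines gave nearly the same ratio, 3.99 (3.82 to 4.18) and 4.12 (3.93 to 4.32). Pkm and Gapdh differed less, with ratios of 1.95 and 3.74 for Pkm and of 1.82 and 1.94 for Gapdh.

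At the end of the pathway, Ldha, which turns pyruvate into lactate, was at 2928 and 1072 CPM in line 2883 and 2242 and 797 CPM in line 2696. Both etoposide libraries were above both vincristine libraries, by 2.73-fold (2.68 to 2.78) and 2.81-fold (2.76 to 2.87). Slc16a3, the lactate exporter, was 15.1-fold higher (13.1 to 17.3) in line 2883 and 2.77-fold (2.51 to 3.07) in line 2696. Pdk1, the kinase that keeps pyruvate out of mitochondria, was at 370 and 87.1 CPM in line 2883 and 285 and 50.5 CPM in line 2696.

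The oxygen sensors themselves are HIF1 targets and were higher with etoposide too. Egln3 was at 391 and 94.5 CPM in line 2883 and 342 and 90.1 CPM in line 2696, and Egln1 was 6.74-fold (6.15 to 7.41) and 3.14-fold (2.91 to 3.38) higher with etoposide. The collagen hydroxylases P4ha1 and P4ha2 followed, P4ha2 with 25.9 and 3.64 CPM in line 2883 and 33.5 and 3.69 CPM in line 2696. Vegfa, the vessel growth factor, was at 151 and 31.0 CPM and at 80.8 and 24.0 CPM. In contrast, the mRNA of Hif1a was at 208 and 187 CPM in line 2883 and 283 and 258 CPM in line 2696, a ratio of 1.11 (1.06 to 1.17) and 1.10 (1.05 to 1.14). The surface enzyme Car9 was near absent in line 2883 (1.34 and 0.966 CPM) and at 127 and 25.2 CPM in line 2696. Pfkfb4 went against the list, with 9.19 and 8.77 CPM in line 2883 and, in line 2696, 0 reads with etoposide and 7.18 CPM with vincristine, at least 41.1-fold higher with vincristine against a floor of 3 reads, which serves for every fold against 0 reads.

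The other resistant derivatives give a scale for these levels. Relative to the median of all 11 resistant libraries, the 38 genes had a median offset of 1.07 in the etoposide derivative of line 2883 and 0.60 in that of line 2696, and of -0.79 and -0.94 in the vincristine derivatives. The vincristine derivative of line 2869 stood at -0.27, the cytarabine derivatives of lines 2869, 7298 and 2883 at -0.66, -0.52 and 0.07, the prednisone derivatives of lines 2641 and 2883 at 0 and 0.24, and the methotrexate derivative of line 2883 at 0.62. Among the 5 derivatives of line 2883, the etoposide derivative was the highest for 24 of 38 genes and the vincristine derivative the lowest for 32. Each derivative is 1 culture, and the density and age of a culture at harvest, which the labels do not give, cannot be told apart from the drug.

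Most sterol synthesis genes were also higher with etoposide than with vincristine. Of 24 cholesterol synthesis genes tested, 18 were higher with etoposide in both lines and 1 lower, with 5 at 2-fold or more in both and a median of 0.40 in line 2883 and 1.31 in line 2696. Both etoposide libraries exceeded both vincristine libraries for 18 of 24, beside 14.6% of all genes. Lss, lanosterol synthase, which closes the sterol ring, was at 266 and 96.2 CPM in line 2883 and 254 and 62.6 CPM in line 2696. The 2 etoposide libraries were alike and the vincristine ones 2.77-fold (2.60 to 2.94) and 4.05-fold (3.79 to 4.34) lower. Across the 7 other resistant derivatives Lss ranged from 77.5 CPM, in the vincristine derivative of line 2869, to 324 CPM. Both etoposide levels of Lss lay inside that range. Its mean log2 difference was 1.73 ± 0.23 (SE; limma adjusted p = 0.612), and in the limma fit of all 16 libraries it was the 1 gene called (adjusted p = 0.0457; 0.0278 to 1 over the alternatives, the lowest with 1 etoposide library left out).

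Other sterol enzymes that were 2-fold or more higher in both lines were Pmvk, Mvd, Msmo1 and Tm7sf2. Mvd, the mevalonate diphosphate decarboxylase, was at 59.8 and 24.6 CPM in line 2883 and 74.0 and 30.2 CPM in line 2696. Msmo1, a sterol oxidase, was at 175 and 72.2 CPM and at 244 and 51.9 CPM. In the 7 other resistant derivatives Msmo1 ranged from 40.6 CPM, in the vincristine derivative of line 2869, to 236 CPM. Both Mvd and Msmo1 lie on chromosome 8, whose genes had a median difference of 0.69 in line 2883. The part of that shift in the values of Mvd and Msmo1 was not tested. Hmgcs1, an early enzyme of the pathway, was at 734 and 569 CPM in line 2883 and at 890 and 177 CPM in line 2696, a ratio of 1.29 (1.25 to 1.33) and 5.02 (4.83 to 5.23). Idi1, Fdft1, Sqle and Insig1 were lower with etoposide in line 2883 and higher in line 2696.

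Of 14 fatty acid synthesis genes tested, 8 were higher with etoposide in both lines and 0 lower. A further 5 were higher in line 2883 and lower in line 2696. The median was 1.00 in line 2883 and 0.26 in line 2696. Scd2, a desaturase, was at 5609 and 1372 CPM in line 2883 and 2622 and 874 CPM in line 2696, and both etoposide libraries were the high ones. In the 7 other resistant derivatives Scd2 ranged from 909 CPM, in the vincristine derivative of line 2869, to 3224 CPM. Elovl6, Acsl3, Acss2 and Scd1 were also above 2-fold higher with etoposide in both lines. Scd1 was at 717 and 165 CPM in line 2883 but at only 2.10 and 0.127 CPM in line 2696, on 36 and 2 reads. Srebf1, Acly, Acaca and Fasn, which lie on chromosome 11, were higher with etoposide in line 2883 and lower in line 2696; Fasn, fatty acid synthase, was at 1124 and 589 CPM in line 2883 and 607 and 984 CPM in line 2696. Over the genes of chromosome 11 the median difference in line 2696 was -0.53, and the part of that shift in these values was not tested.

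**Figure D3:**
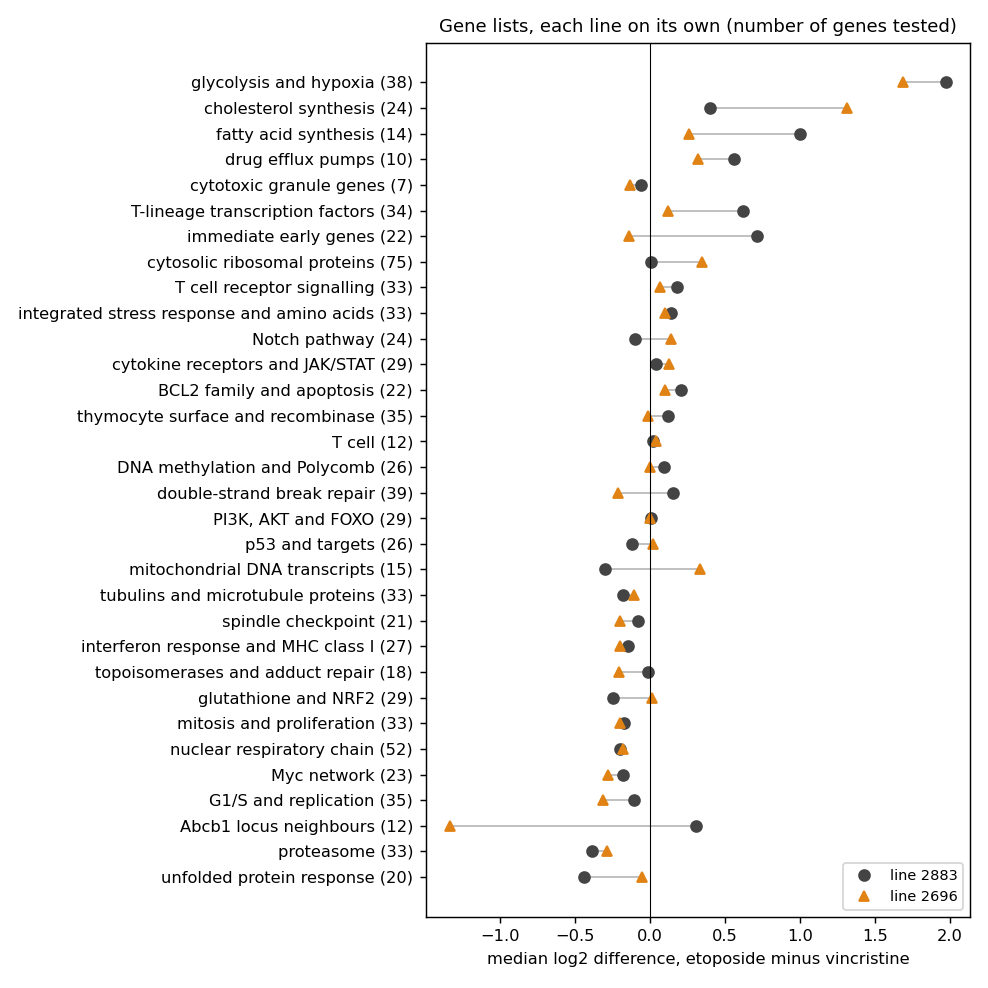
Median difference, etoposide minus vincristine, of each gene list with 5 or more genes tested; circles are line 2883, triangles line 2696, and the number of genes tested is in brackets. Glycolysis and hypoxia (1.97 and 1.69) stands apart on the right, the list of Abcb1a, Abcb1b, Abcb4 and the genes around them has medians of opposite sign in the 2 lines (0.31 and -1.33), and most other lists lie within 0.5 of 0 in both.

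Top2a, the alpha form of topoisomerase II and the main target of etoposide in dividing cells, was lower with etoposide in both lines. Its promoter is shown because it is known for its inverted CCAAT boxes; it spans chr11:99024190-99024439 (minus strand, GRCm38.p6, RefSeq), with CCAAT on either strand in capitals.
Top2a: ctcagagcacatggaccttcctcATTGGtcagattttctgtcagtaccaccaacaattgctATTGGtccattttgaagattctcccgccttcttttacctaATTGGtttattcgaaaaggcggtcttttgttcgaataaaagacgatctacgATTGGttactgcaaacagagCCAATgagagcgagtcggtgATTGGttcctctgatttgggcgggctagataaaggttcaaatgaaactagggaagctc
The window holds 6 such matches. CCAAT was present in 37.5% of the windows of all genes tested with an entry.

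Top2a was at 516 CPM with etoposide and 1310 CPM with vincristine in line 2883, and at 354 and 1890 CPM in line 2696. Both etoposide libraries were below both vincristine libraries. The vincristine level was 2.54 times the etoposide level (2.47 to 2.61) in line 2883 and 5.35 times (5.20 to 5.50) in line 2696, and the mean log2 difference was -1.88 ± 0.33 (SE; limma adjusted p = 0.71, and 0.0346 to 1 over the alternatives, the lowest from a fit with 1 etoposide library). In the 7 other resistant derivatives Top2a ranged from 999 to 1589 CPM, so the etoposide derivatives were below all of them, and the vincristine derivative of line 2696 was above them. Top2a lies on chromosome 11, whose genes had a median difference of -0.53 in line 2696 and -0.08 in line 2883. Top2a itself stood at -2.42 in line 2696 and -1.34 in line 2883. The part of the chromosome shift in its values was not tested. In bulk RNA, fewer cells in the phases that express a gene and less of its RNA in each cell cannot be told apart.

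Of 18 topoisomerase and adduct repair genes, 2 were higher and 7 lower with etoposide in both lines. These are 11.1% and 38.9%, beside 28.2% and 28.1% of all genes tested. The medians were -0.02 and -0.21. Top2b, the form found in resting cells, was at 289 and 229 CPM in line 2883 and 268 and 314 CPM in line 2696, and the lines went opposite ways. Tdp2, which frees DNA ends from trapped topoisomerase II, had ratios of 0.946 (0.846 to 1.06) and 0.872 (0.792 to 0.96). Sumo2, a modifier that marks trapped complexes, lies on chromosome 11 and was at 265 and 379 CPM in line 2883 and 262 and 376 CPM in line 2696. Rnf4, the ligase that recognises such marks, was at 89.3 and 253 CPM in line 2883 and 222 and 238 CPM in line 2696; it lies in a stretch of chromosome 5 where genes had a median of -0.94 in line 2883.

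Proliferation genes leaned the same way as Top2a but by little. Of 33 mitosis genes, 17 were lower and 2 higher with etoposide in both lines (medians -0.17 and -0.20), of 21 spindle checkpoint genes 11 were lower and 0 higher, and of 35 genes of G1/S and replication 17 were lower and 5 higher. The cell-cycle inhibitor Cdkn1b went the other way, at 162 and 80.8 CPM in line 2883 and 124 and 56.6 CPM in line 2696, with the etoposide libraries on top. E2f7, a repressor of G1/S genes, had 0 reads with etoposide and 14.0 CPM with vincristine in line 2883, at least 66.4-fold higher with vincristine, and was at 14.2 and 42.8 CPM in line 2696; it lies in a stretch of chromosome 10 whose genes had a median of -1.17 in line 2883.

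Of 33 tubulin and microtubule genes tested, 8 were higher and 16 lower with etoposide in both lines, beside 28.2% and 28.1% of all genes. At 2-fold or more in both lines stood 0 of them. Tubb5, the main beta-tubulin of lymphoid cells, was at 1538 and 1556 CPM in line 2883 and 1358 and 1479 CPM in line 2696, so all 4 libraries were close. Wider differences were not alike in the 2 lines. Tuba8 was at 33.6 and 0.623 CPM in line 2883 and at 49.7 and 106 CPM in line 2696, past 2-fold in opposite directions. Tuba1a had ratios of 1.35 (1.23 to 1.47) and 3.51 (3.14 to 3.93). Tuba1b was at 1242 and 1739 CPM and at 1190 and 1399 CPM. Tubb3, the neuronal form often studied in resistance to spindle drugs, was at 18.5 and 4.60 CPM in line 2883 and 29.6 and 22.3 CPM in line 2696; it lies on chromosome 8. Stmn1, which breaks microtubules down, was at 306 and 600 CPM in line 2883 and 221 and 272 CPM in line 2696.

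P-glycoprotein did not separate the drugs. Abcb1a was at 3757 CPM with etoposide and 5237 CPM with vincristine in line 2883, and at 286 and 178 CPM in line 2696. Both libraries of line 2883 were above both of line 2696. Vincristine had more of it in line 2883, at 1.39 times the etoposide level (1.38 to 1.41), and etoposide had more in line 2696, at 1.61 times the vincristine level (1.53 to 1.68). Abcb1b went the opposite way in each line, with 1254 and 718 CPM in line 2883 and 47.1 and 124 CPM in line 2696; reads of the near-identical paralogs may have been assigned to either. The mean log2 difference was 0.10 ± 0.35 for Abcb1a and -0.28 ± 0.58 for Abcb1b (SE; limma adjusted p = 0.936 and 0.884). In the other 3 derivatives of line 2883 Abcb1a was at most 1.65 CPM.

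Of the 10 pumps tested, 5 were higher with etoposide in both lines and 0 lower, beside 28.2% and 28.1% of all genes tested. Abcc1, another exporter of both drugs, was at 116 and 73.6 CPM in line 2883 and 100 and 78.9 CPM in line 2696, with the etoposide libraries slightly above. Abcc5 and Abcc10 had ratios between 1.25 and 1.64. Abcc2 was at 8.91 and 0.144 CPM in line 2883 and had under 1 CPM in either derivative of line 2696.

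The genes around Abcb1a, in map order on chromosome 5 from Sri to 9330182L06Rik, differed between the derivatives by more than the pump gene did at either end. In line 2883 both derivatives were above the 3 other derivatives of that line at every named gene from Dbf4 to Dmtf1. At one end, Sri, a calcium-binding protein, was at 2154 CPM with etoposide and 292 CPM with vincristine, and its neighbour Adam22 at 105 and 0.76 CPM, a ratio of 140 (77.8 to 280). The 3 other derivatives of line 2883 had 16.6 to 54.3 CPM of Sri and at most 0.355 CPM of Adam22. At the other end the order turned: 9330182L06Rik, named after its values were seen, was at 0.288 CPM with etoposide and 72.3 CPM with vincristine. Adam22 was thus high with etoposide alone, and 9330182L06Rik with vincristine alone.

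Between these edges the genes of line 2883 were high in both libraries and differed by less. Dbf4, a regulator of replication origins, was at 3318 and 4717 CPM, Rundc3b at 1458 and 1536 CPM, and Crot, a peroxisomal enzyme, at 1018 and 1521 CPM. In the 3 other derivatives of this line they were at most 168, 38.7 and 48.6 CPM. Slc25a40 (1010 and 699 CPM) and Tmem243 (364 and 207 CPM) were on the etoposide side. The etoposide to vincristine ratio therefore varied along the stretch.

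In line 2696 levels were lower and the pattern differed. Abcb1a was higher with etoposide while its neighbours were higher with vincristine. Dbf4 was at 138 and 373 CPM, Crot at 42.9 and 131 CPM, Tmem243 at 7.32 and 26.9 CPM, Sri at 57.2 and 142 CPM and Dmtf1 at 110 and 198 CPM. At the far edge 9330182L06Rik was at 0.064 and 2.90 CPM, the same direction as in line 2883. For comparison, the 3 other derivatives of line 2883 had 117 to 168 CPM of Dbf4 and 27.5 to 48.6 CPM of Crot. Rundc3b, at 83.8 and 83.5 CPM, was equal within counting error (ratio 1.00, 0.932 to 1.08). Of the 9 listed genes around the 3 pump genes that were tested, 2 were lower with etoposide in both lines and 0 higher, 5 were higher in line 2883 and lower in line 2696, 1 was the reverse and 1 had no read in line 2883; the medians were 0.08 and -1.29. DNA copy number was not measured, and copy gain and higher transcription cannot be told apart from these values.

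**Figure D4:**
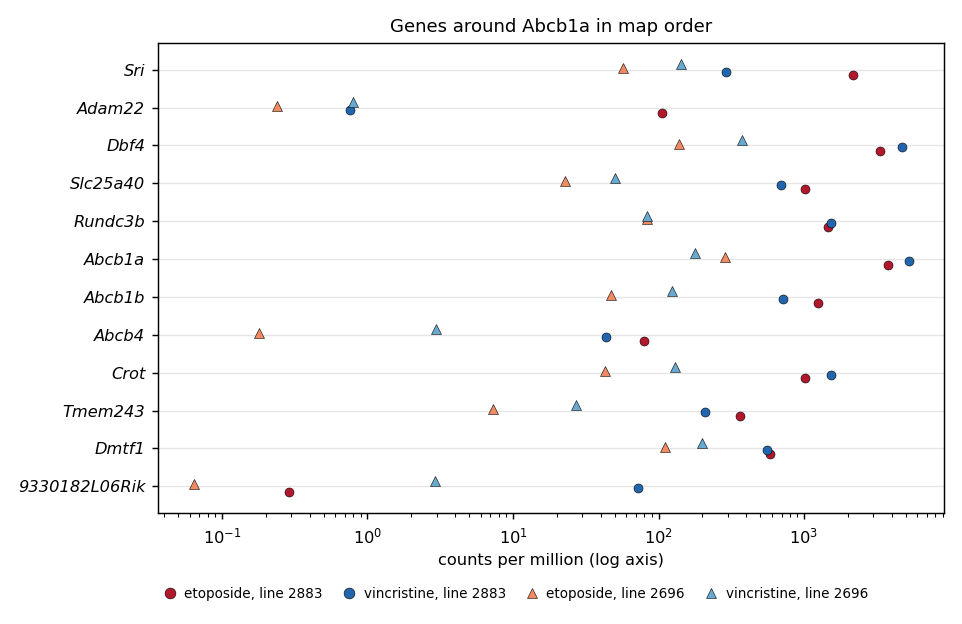
Levels in CPM (log axis) of the named genes around Abcb1a in map order, top to bottom; circles are line 2883 and triangles line 2696, warm colours etoposide and blue vincristine. In line 2883, Adam22 is high with etoposide alone (105 against 0.76) and 9330182L06Rik with vincristine alone (72.3 against 0.288), while in line 2696 the neighbours other than Rundc3b lie to the right with vincristine and Abcb1a with etoposide.

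Whole chromosomes also differed between derivatives of 1 line. Among 9548 genes with a mean of 10 CPM or more, the 833 genes of chromosome 11 had a median difference of -0.53 in line 2696, with 713 of them (85.6%) lower with etoposide, and each of its 13 windows of 10 Mb had a median between -0.72 and -0.39. In line 2883 the same chromosome was at -0.08. The 518 genes of chromosome 8 had a median of 0.69 in line 2883, with 89% higher with etoposide, and 11 of 12 windows were above 0.35, a limit set after these values were seen; in line 2696 the median was -0.01. In all, 25 of 242 windows passed that limit in line 2883 and 14 in line 2696, where the 1 outside chromosome 11 held the Abcb1a stretch. In line 2883 the others past 0.6 lay on chromosome 5 (0.61 to 0.66 from 100 to 130 Mb and -0.94 from 30 to 40 Mb), chromosome 10 (-1.17 and -0.96 from 110 to 130 Mb) and chromosome 14 (-0.92 and -0.85 from 60 to 80 Mb, -1.11 from 100 to 110 Mb and -1.03 from 120 to 130 Mb). Single windows of chromosomes 3 and 12 stood at 0.41 and 0.40, and 2 of the X chromosome at -0.45 and -0.35. The other nuclear chromosomes had medians between -0.16 and 0.09 in line 2883 and between -0.05 and 0.05 in line 2696. The part of these shifts in the values of single genes was not tested.

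**Figure D5:**
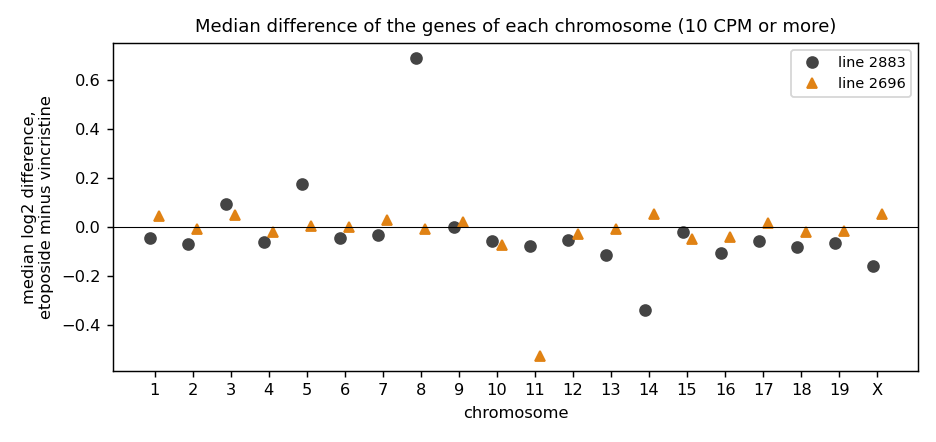
Median difference, etoposide minus vincristine, over the genes of each chromosome with a mean of 10 CPM or more; circles are line 2883 and triangles line 2696. Chromosome 8 stands at 0.69 in line 2883 and chromosome 11 at -0.53 in line 2696, while the other line is near 0 for each.

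Of the 27 glycolysis and hypoxia members on chromosomes other than 5, 8, 10, 11 and 14, 25 were higher with etoposide in both lines, with medians of 1.72 and 1.71 beside 1.97 and 1.69 for the whole list. Trp53, the p53 gene, lies on chromosome 11 and was at 85.4 and 107 CPM in line 2883 and at 163 and 345 CPM in line 2696. The proteasome, the protease that degrades marked proteins, touched both patterns. Of 33 proteasome genes tested, 26 were lower with etoposide in both lines and 0 higher, with medians of -0.38 and -0.29. Psmb3 was at 99.8 and 141 CPM in line 2883 and 80.9 and 145 CPM in line 2696, and lies on chromosome 11 with 6 others; off that chromosome the median in line 2696 was -0.22 and 20 were lower in both. Of 52 nuclear genes of the respiratory chain, 32 were lower and 5 higher, with medians of -0.20 and -0.18. Of 75 ribosomal protein genes, 35 were higher and 4 lower, with medians of 0.01 and 0.35. The 15 transcripts of mitochondrial DNA split by line, 14 of them lower with etoposide in line 2883 and higher in line 2696 (medians -0.30 and 0.33).

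Further genes higher with etoposide than with vincristine in both lines came from several pathways. Bcl2l2, which encodes the survival protein BCL-w, was at 17.9 CPM with etoposide and had 0 reads with vincristine in line 2883, at least 87.0-fold higher, and was at 16.8 and 0.67 CPM in line 2696. Tmem108, a membrane protein, was at 35.8 and 2.27 CPM and at 110 and 10.6 CPM, and Ptgfrn, a partner of tetraspanins, at 69.1 and 5.83 CPM and at 16.1 and 1.03 CPM. For all 3 genes the 2 etoposide libraries were the high ones of the 4. In the 7 other resistant derivatives Bcl2l2 ranged from 0.119 to 16.5 CPM and Tmem108 from 0.141 to 47.1 CPM. Ptgfrn ranged from 15.8 to 309 CPM in those derivatives, with both etoposide levels inside that range. Ahnak, a giant scaffold protein, had ratios of 4.45 (4.17 to 4.75) and 5.77 (5.19 to 6.42). The Notch ligand Jag2 was at 37.7 and 2.47 CPM in line 2883 and 7.98 and 0.85 CPM in line 2696.

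Of 34 transcription factors of T-cell identity, 14 were higher in both lines and 5 lower, beside 28.2% and 28.1% of all genes tested. Their medians were 0.62 and 0.12. Id2 and Id3, inhibitors of E proteins, were 2-fold or more higher in both: Id2 was at 80.5 and 12.7 CPM in line 2883 and 83.4 and 37.6 CPM in line 2696, and Id3 at 10.7 and 4.05 CPM and at 47.2 and 11.8 CPM. Ikzf2, which encodes Helios, was at 153 and 27.2 CPM and at 207 and 99.6 CPM. Tet2, a DNA demethylase, was at 65.6 and 16.2 CPM in line 2883 and at 74.6 and 27.0 CPM in line 2696. Hmox1, which degrades haem, had ratios of 3.43 and 2.05, and lies on chromosome 8. Ighm, the immunoglobulin heavy chain, was at 191 and 7.06 CPM in line 2883 and 101 and 41.9 CPM in line 2696, while the defining B-cell markers Cd79b and Cd22 were at most 3.27 and 12.6 CPM.

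Genes lower with etoposide than with vincristine in both lines were fewer. Sstr2, a somatostatin receptor, was at 14.9 and 72.2 CPM in line 2883 and 5.95 and 25.6 CPM in line 2696. Its etoposide libraries were the 2 lowest of the 4, but lay inside the range of the 7 other resistant derivatives (2.78 to 34.7 CPM). Cd48, an adhesion receptor of lymphocytes, was at 12.2 and 37.5 CPM and at 1.35 and 9.30 CPM. Dnajb9, a chaperone helper of the endoplasmic reticulum, was at 3.09 and 16.4 CPM and at 4.84 and 13.6 CPM. Prpf8, the core splicing factor, was at 292 and 726 CPM and at 615 and 1366 CPM, and Pecam1 at 25.5 and 64.9 CPM and at 52.9 and 220 CPM; Sstr2, Prpf8 and Pecam1 lie on chromosome 11.

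Larger differences were found in 1 line alone. In line 2883, Clmp, an adhesion molecule, was at 318 CPM with etoposide and had 0 reads with vincristine, at least 1549-fold higher, and had 0 reads in both derivatives of line 2696. The homeobox gene Barx1 was at 187 CPM with vincristine and had 0 reads with etoposide in line 2883, at least 888-fold higher, and the receptor Kit was at 41.4 CPM there against 0 reads. Pdgfrb was at 2.95 and 433 CPM in line 2883 but at 429 and 370 CPM in line 2696, and Ngfr at 2.32 and 243 CPM in line 2883. In line 2696, Xist, the RNA that coats the inactive X chromosome, was at 3046 CPM with etoposide and 1.51 CPM with vincristine, and at 3600 and 1975 CPM in line 2883. Also in line 2696, Ezr, a link between membrane and actin, was at 247 and 0.79 CPM, and the ETS factor Erg had 0 reads with etoposide and 56.5 CPM with vincristine, at least 324-fold higher with vincristine. At 2-fold or more, 1116 genes were higher (8.81%) and 741 lower (5.85%) in line 2883, and 912 higher (7.2%) and 395 lower (3.12%) in line 2696; 162 genes (1.28%) passed 2-fold in opposite directions.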

How the data were processed

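The values are FPKM that the authors deposited for 13474 genes in 16 libraries; cutadapt, STAR and Partek and the mm10 build are named, without versions, per the submitters' processing notes, and no source used here gives the annotation or the counting rule. RNA was made into stranded mRNA libraries, per the labels' protocols. In the deposited FPKM table the gene length equals the whole genomic span, so FPKM times that length gave CPM. Reads were rebuilt from the value of a gene with no read, 0.1 of a read. Between 70.5% and 73.2% of values from 0.5 to 200 reads came within 0.05 of a whole read in the 4 libraries, so no count test was run. Genes with a mean of at least 1 CPM over the 4 libraries (12669) were tested on log2(CPM + 1) with limma 3.58.1 in R 4.3.3 (trend, Benjamini-Hochberg adjustment at 0.05). The cell line entered as a block, because same-numbered samples come from 1 line; their deviations from the drug means had a correlation of 0.68. Each line and drug is 1 library, so a gene's own spread is that between 2 lines, on 1 residual degree of freedom. limma moderates it with 2.86 further degrees of freedom drawn from the spread across genes. The SE and p-values given are these moderated ones. A gene with 0 reads in both derivatives of a line was given no direction there. The code of the test was checked on simulated data with the same drug effect in both lines and independent noise. In the real data the lines differed more, so that check does not show how the test performs here. Ratios carry Clopper-Pearson intervals, which cover counting error only, and a fold against 0 reads uses a floor of 3 reads per library. The rule for named genes leaves out predicted models and takes, per direction, up to 12 genes with the smallest p and up to 12 with the widest difference in both lines, up to 6 in each line alone, all members of the pump, Abcb1 neighbour, topoisomerase and tubulin lists and up to 6 of each other list; 9330182L06Rik, Kit and further list members were named after their values were seen. The members and lists were chosen with earlier results of these data known. Alternatives covered the scale, pseudocount, filter, scaling, block, samples in the fit and leaving out libraries. The parental libraries entered only the alternative with all 16 libraries and those that left 1 library out of it. Some members of the cholesterol list are not reported here by name. Promoter sequences are from RefSeq (GRCm38.p6), matched by symbol for 9113 of 12669 genes.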

Additional observations from a re-analysis of the deposited data

Results flagged for a closer look

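The 15 results flagged here are some of those in which the 2 lines went opposite ways between the same drugs. Others, such as Abcb1a and Top2b, are given above. The difference between the lines was not tested, since each line and drug has 1 library. Each value is the etoposide minus vincristine difference in line 2883 minus that in line 2696, on the log2(CPM + 1) scale. Around the pump gene it was 6.45 for Adam22, 4.17 for Sri, 2.59 for Abcb4, 2.56 for Tmem243, 2.17 for Abcb1b and 1.63 for Slc25a40. Among genes with a wide difference in at least 1 line it was 7.31 for Wdfy4, 6.97 for Stx7, 6.48 for Nckap1 and -8.24 for Ptpn13. For Ak4, an adenylate kinase of mitochondria, it was 10.7, with wide and opposite differences in the 2 lines. Ak4 was at 193 and 4.05 CPM in the etoposide and vincristine derivatives of line 2883. In line 2696 it had 0 reads with etoposide and 42.2 CPM with vincristine. Among the drug target lists it was 5.48 for the alpha-tubulin Tuba8, -1.62 for the beta-tubulin Tubb2b and 1.61 for Tdp1, which frees DNA from trapped topoisomerase I. For the median of the mitochondrial DNA transcripts it was -0.64.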

How the results depend on the processing

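limma called 0 genes at an adjusted p under 0.05, with 798 at an unadjusted p under 0.05, and 0 also on FPKM, with pseudocounts of 0.1 or 5, with no filter, at a minimum of 10 CPM, under median-of-ratios or quantile scaling, with 11 resistant libraries and without chromosomes 5, 8, 10, 11 and 14, an alternative chosen after seeing the data. Without the replicate block that pairs the lines, 0 were called and 310 had an unadjusted p under 0.05. With all 16 libraries 1 gene, Lss, was called (adjusted p = 0.0457), and leaving out 1 library from that fit gave 0 to 34. The larger counts came without the etoposide derivative of line 2883 (16 genes, among them Top2a at -2.22, adjusted p = 0.0346) and without that of line 2696 (34 genes); both leave 1 etoposide library, which is assumed to vary like the other groups. The 245 genes 2-fold higher became 66 on FPKM, 397 and 107 with pseudocounts of 0.1 and 5, and 156 at 10 CPM; the 40 lower genes became 8, 97, 8 and 22, and 26 without the shifted chromosomes. In 1 line alone, 912 to 1116 were higher and 395 to 741 lower. The median of the glycolysis list, 1.96, was 1.53 on FPKM and 1.57 without the shifted chromosomes, and 1.69 to 1.97 in 1 line alone, and the causes were not tested. Of 1272 values for 89 named genes, 1262 kept direction and side of the threshold, 7 passed it and 3 reversed: Tdp2 at 0.0427, Aldoc at -0.33 and Eno2 at 0.11, each in the 16-library fit without 1 library. Depth limits genes under 3 reads.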
